A study of Homo sapiens with 14 samples.

Results

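The mitosis and spindle genes described here are 36 genes that carry a human cell from late G2 to the separation of the daughter cells, taken by name from a list of mitotic kinases, checkpoint, kinetochore, spindle and cytokinesis genes. Of these, 35 were measured among 18398 genes on the arrays. The remaining one, CENPA, is represented by a single array row that is shared with SLC35F6, so it was not used. The list was matched by gene symbol, with SGOL1 under its present symbol SGO1.

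RNA came from OVCAR-3, an established human ovarian carcinoma line with extra copies of CCNE1, and from 5 resistant sublines named R1, R3, R5, R6 and R7, derived independently of each other under PHA-533533, an inhibitor of the cell cycle kinase CDK2. The 4 parental arrays hold OVCAR-3 cells grown in medium without the inhibitor. The 5 selected arrays hold each subline at passage 5 in 4 µM PHA-533533. The 5 stable arrays hold the same sublines at passage 10 or later in 0 µM. All cells grew in the same serum-containing medium and were harvested before confluence. Inhibitor and passage changed together between selected and stable cells and cannot be told apart. Whether the parental replicates are cultures of their own is not stated in the labels, so the spread behind the p-values of those comparisons may be technical.

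In mitotic entry, CDK1 with a B-type cyclin, together with PLK1 and Aurora A, drives chromosome condensation and spindle assembly. The chromosomal passenger complex, which is Aurora B (AURKB) with INCENP, survivin (BIRC5) and borealin (CDCA8), corrects faulty kinetochore attachments and later acts in cytokinesis, while the spindle checkpoint holds back CDC20 and separase until every kinetochore is attached. Transcription of many of these genes peaks in G2 and mitosis. It is repressed in resting cells by the DREAM complex and activated by B-MYB and FOXM1 through a promoter element called CHR, often beside CCAAT boxes bound by NF-Y.

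The 250 bases upstream of the start of 6 members are shown because they hold letters of 1 or both of these elements and belong to genes whose levels are described below. The sequences are from RefSeq (GRCh38.p14) and read 5′ to 3′ on the plus strand, on which all 6 genes lie. Capitals mark the CHR letters TTTGAA and the CCAAT letters on either strand (TTCAAA and ATTGG when read on the plus strand), and the motifs may overlap, as they do in CDCA8.
CDK1 (chr10:60778081-60778330): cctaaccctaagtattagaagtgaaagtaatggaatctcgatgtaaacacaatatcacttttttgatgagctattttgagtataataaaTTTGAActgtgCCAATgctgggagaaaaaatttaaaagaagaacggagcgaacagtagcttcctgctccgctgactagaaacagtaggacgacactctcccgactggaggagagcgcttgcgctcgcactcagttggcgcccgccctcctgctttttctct
CCNB1 (chr5:69166900-69167149): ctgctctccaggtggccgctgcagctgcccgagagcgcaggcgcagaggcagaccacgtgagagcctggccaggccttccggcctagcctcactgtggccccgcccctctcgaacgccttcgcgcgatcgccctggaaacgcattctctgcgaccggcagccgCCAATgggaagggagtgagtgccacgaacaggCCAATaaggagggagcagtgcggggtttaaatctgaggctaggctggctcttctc
CCNB2 (chr15:59104896-59105145): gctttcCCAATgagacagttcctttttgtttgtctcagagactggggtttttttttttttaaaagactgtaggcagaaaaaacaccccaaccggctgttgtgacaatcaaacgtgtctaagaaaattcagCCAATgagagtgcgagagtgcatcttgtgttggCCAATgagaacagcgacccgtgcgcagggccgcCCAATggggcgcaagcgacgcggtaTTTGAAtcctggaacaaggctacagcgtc
PLK1 (chr16:23678639-23678888): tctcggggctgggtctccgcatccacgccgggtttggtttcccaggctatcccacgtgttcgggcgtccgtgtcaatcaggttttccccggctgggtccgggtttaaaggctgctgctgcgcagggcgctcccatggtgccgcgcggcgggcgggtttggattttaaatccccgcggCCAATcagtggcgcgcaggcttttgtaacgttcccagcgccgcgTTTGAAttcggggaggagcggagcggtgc
CDCA8 (chr1:37692266-37692515): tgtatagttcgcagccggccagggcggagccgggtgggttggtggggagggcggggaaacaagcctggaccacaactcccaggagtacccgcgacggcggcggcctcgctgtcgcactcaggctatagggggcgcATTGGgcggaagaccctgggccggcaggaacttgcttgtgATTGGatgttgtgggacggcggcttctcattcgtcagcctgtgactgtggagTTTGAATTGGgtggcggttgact
KIF11 (chr10:92592880-92593129): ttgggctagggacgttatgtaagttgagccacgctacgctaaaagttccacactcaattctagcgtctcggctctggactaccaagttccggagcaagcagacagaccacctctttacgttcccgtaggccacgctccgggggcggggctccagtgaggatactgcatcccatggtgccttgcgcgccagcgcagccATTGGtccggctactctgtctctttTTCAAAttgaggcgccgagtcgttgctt
CCNB2 has TTTGAA at 29 bases before the start and 4 CCAAT boxes further upstream. PLK1 has TTTGAA at the same distance, with 1 CCAAT box. CCNB1 has 2 CCAAT boxes, and the letters TTTGAA are not in the window shown. In CDK1, TTTGAA is at -161 from the outermost RefSeq start, upstream of its CCAAT at -150. Whether those letters are the CHR of CDK1 was not examined.

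The search covered 250 bases before to 50 bases after the start, and the promoter table held such a window at the outermost RefSeq start for 27 members. TTTGAA was in 20 of the 27 windows (74.1%), against 15.7% of all 24884 promoters of the same length. CCAAT was in 20 (74.1%), against 36.1%, and both motifs were in 16 (59.3%), against 6.26%. Among 102 windows of other mitotic genes the shares were 34.3% for TTTGAA, 58.8% for CCAAT and 22.5% for both. These are matches of letters, and binding was not measured.

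Signals between 4.34 and 14.9 were deposited, on a log scale of a base taken to be 2, with medians over all genes between 7.99 and 8.10 per array. The 10 epithelial and serous ovarian markers had a mean of 11.0 to 11.4 per array, whereas the leukocyte, fibroblast and endothelial lists had means between 6.43 and 7.03 per array. Of those 14 markers COL1A1 was the highest, with its level at the 71.7th percentile of all genes. CD68, CD14 and COL1A2 followed, at percentiles of 48.3, 45.1 and 44.1. Background was followed by the average over 340 olfactory receptor genes, a family expressed in few tissues. It was 6.42 ± 0.225 (SD, n = 4) for parental cells, 6.35 ± 0.211 (SD, n = 5) for selected cells and 6.50 ± 0.212 (SD, n = 5) for stable cells. Precision is limited by how many arrays there were.

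The members were well expressed. Their mean levels ran from the 56.4th percentile of all genes for CDC25C to the 97.8th for CDC20. The mean over the 35 members was 10.24 ± 0.16 (SD, n = 4) for parental cells, 10.28 ± 0.13 (SD, n = 5) for selected cells and 10.23 ± 0.14 (SD, n = 5) for stable cells. In bulk RNA fewer mitotic cells and less RNA per mitotic cell cannot be told apart.

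Resistant cells growing in the CDK2 inhibitor were compared first with the cells they came from. AURKB was the only member that passed, and it was lower: 1 of 35 members, where 6.92% of all genes were called (5.03% higher and 1.89% lower). At an unadjusted p under 0.05 there were 6 members (17.1%), of which BUB1, CCNB2 and NUF2 were higher and AURKB, CCNB1 and PTTG1 lower, against 20.3% of all genes. The median difference of the members was 0.08 on the log2 scale, with 13 of 35 below 0, against a median of -0.01 and 54.1% below 0 for all genes. Without parental replicate 3 that median was -0.01, without replicate 2 it was 0.15 and without the selected array of R1 0.03, and it was 0.01 with array weights or quantile normalization, so its sign rests on parental replicate 3. With quantile normalization the calls numbered 5 of 35 members (AURKB, CCNB1, CCNB2, KIF20A and PTTG1) and 1710 of 18398 genes.

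Stable cells were compared with parental cells to see what remained without the inhibitor. No member was called by limma, and 1 gene in all was (0.00544%). At an unadjusted p under 0.05 there were 3 members (8.57%), with CCNB1 and PTTG1 lower and NUF2 higher, against 6.09% of all genes. The median difference of the members was -0.01, with 19 of 35 below 0, against 51.6% of all genes. This comparison and the one before it share the 4 parental arrays.

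Between selected and stable cells of the same sublines, AURKB was again the only member called, lower in selected cells, where 2.16% of all genes were called (1.54% higher and 0.614% lower). With the subline as a block the count for all genes was 906 in place of 397 (4.92%, with 3.61% higher and 1.31% lower), and AURKB was still the only member. At an unadjusted p under 0.05 there were 4 members (11.4%), against 15.3% of all genes. The members' median difference was 0.07, with 9 of 35 below 0, against 0.00 and 49.1% for all genes. That median was 0.01 without the selected array of R1, 0.03 without the stable array of R5 or without R7, and was -0.0037 with quantile normalization, -0.0082 with the mean of olfactory receptor genes, a background measure, as a covariate, and -0.06 with that covariate and the subline block.

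**Figure D1:**
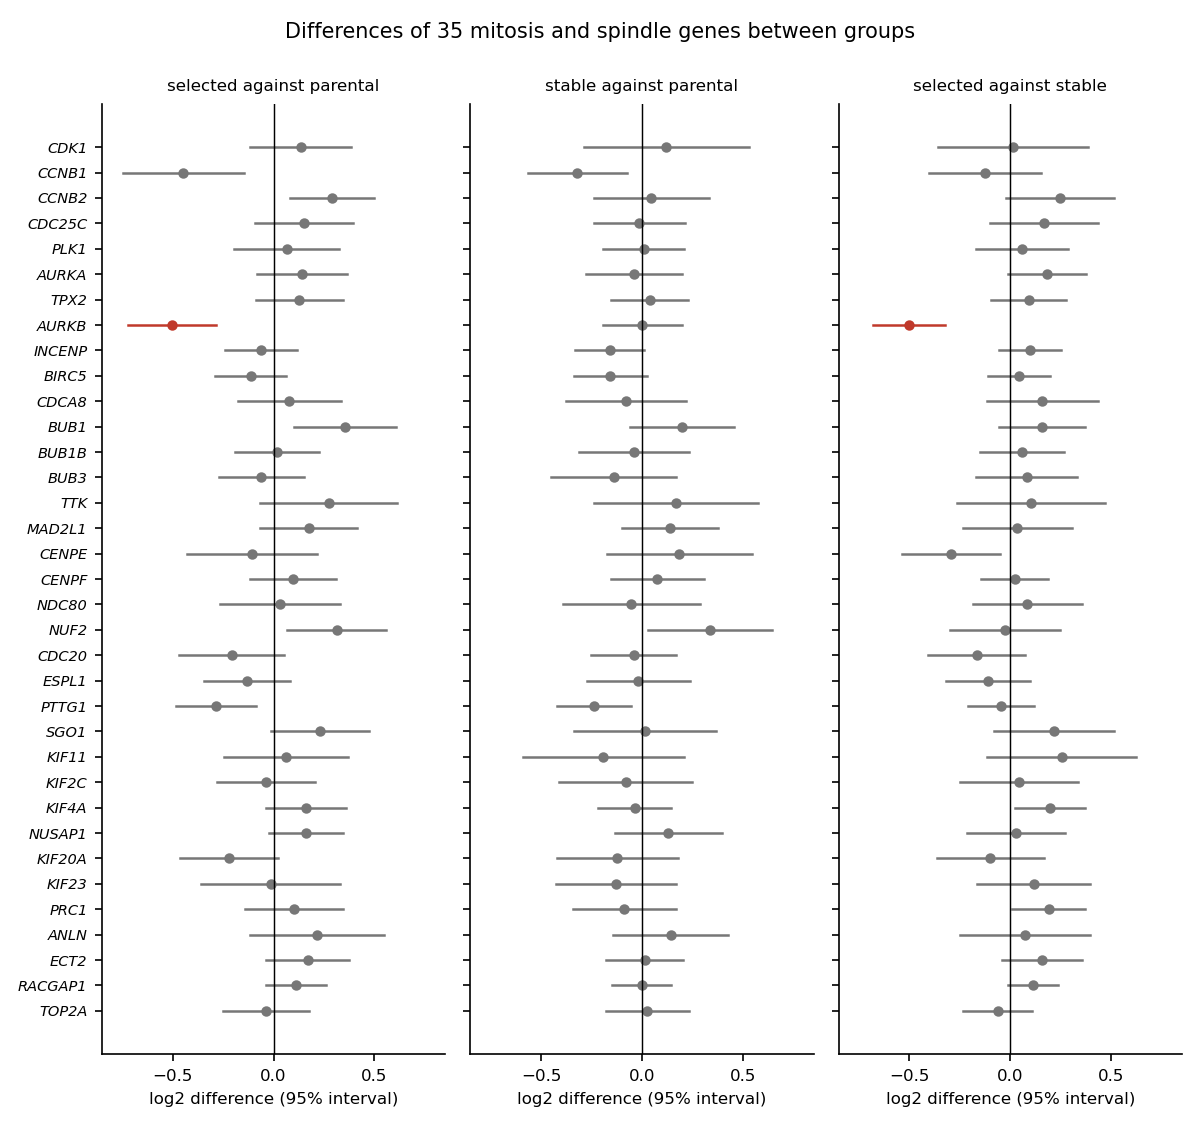
Log2 difference of each of the 35 measured members between groups (points) with 95% intervals from the limma fit (lines), in order of role from mitotic entry at the top to chromosome structure at the bottom, for the 3 comparisons. Red marks an adjusted p under 0.05, which AURKB alone reaches, at -0.50 against parental and -0.50 against stable cells.

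Aurora B is the kinase of the passenger complex. AURKB had log2 levels of 10.66, 10.53, 10.29 and 10.62 in the 4 parental arrays. In the selected arrays of R1, R3, R5, R6 and R7 it had 10.18, 9.79, 9.96, 10.06 and 10.12, and in the stable arrays of the same sublines 10.58, 10.59, 10.49, 10.59 and 10.39. Every selected array lay below every parental and every stable array, while stable and parental arrays overlapped. The means were 10.53 ± 0.16 (SD, n = 4), 10.02 ± 0.15 (SD, n = 5) and 10.53 ± 0.088 (SD, n = 5) in that order of groups. Such separation downwards was found for 2.96% of all genes against parental and for 1.33% against stable cells. AURKB fell by 0.50 against parental cells (SE 0.10, adjusted p = 0.0133), a level 0.706 times as high, and by 0.50 against stable cells (SE 0.083, adjusted p = 0.0154, and 0.0214 with the subline block). Stable cells differed from parental cells by 0.00 (95% interval -0.20 to 0.20).

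Within sublines the selected array was lower than the stable array by 0.40, 0.79, 0.53, 0.53 and 0.26, in the order R1, R3, R5, R6, R7. AURKB was the only member below in all 5 sublines, as were 7.36% of all genes. The call against parental cells was lost without parental replicate 4 (adjusted p = 0.0543). The call against stable cells was lost when both arrays of R7 were left out (difference -0.56, adjusted p = 0.0733), a setting that left 0 of 18398 genes called.

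INCENP is the scaffold that activates Aurora B, and its levels were 9.19, 9.36, 9.20 and 9.42 in parental, 9.36, 9.32, 9.14, 9.15 and 9.17 in selected, and 9.17, 9.16, 9.00, 9.18 and 9.14 in stable arrays. Every stable array lay just below every parental one, as for 1.42% of all genes, but the difference of -0.16 (SE 0.077) did not pass (adjusted p = 0.842). Survivin recruits the complex to centromeres. BIRC5 differed by -0.11 (SE 0.081) in selected and by -0.16 (SE 0.082) in stable against parental cells. Borealin joins survivin to INCENP, and CDCA8 differed by 0.08 (SE 0.12) and -0.08 (SE 0.14). None of the 3 partners was called in any comparison. The level of AURKB minus the mean of its 3 partners, all on the array's log2 scale, lay between 0.87 and 1.12 for parental, 0.35 and 0.65 for selected, and 1.04 and 1.16 for stable arrays. This measure contains AURKB and is not independent of the AURKB difference. It also carries shifts of the partners, although none of them was called. Its mean was 0.97 for parental, 0.50 for selected and 1.11 for stable arrays, while AURKB itself differed by 0.00 between stable and parental cells. The array signals of different genes are not on a per-length scale, and only the shift between arrays can be read from this measure.

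The 5 measured genes on each side of AURKB on chromosome 17 were also examined. None of these 10 was called, where 6.92% of all genes were called against parental and 2.16% against stable cells. At an unadjusted p under 0.05 against stable cells, RANGRF was higher and CTC1 and PFAS lower, where 15.3% of all genes passed. The differences of the 10 neighbours ran from -0.08 to 0.14 against parental and from -0.17 to 0.27 against stable cells.

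**Figure D2:**
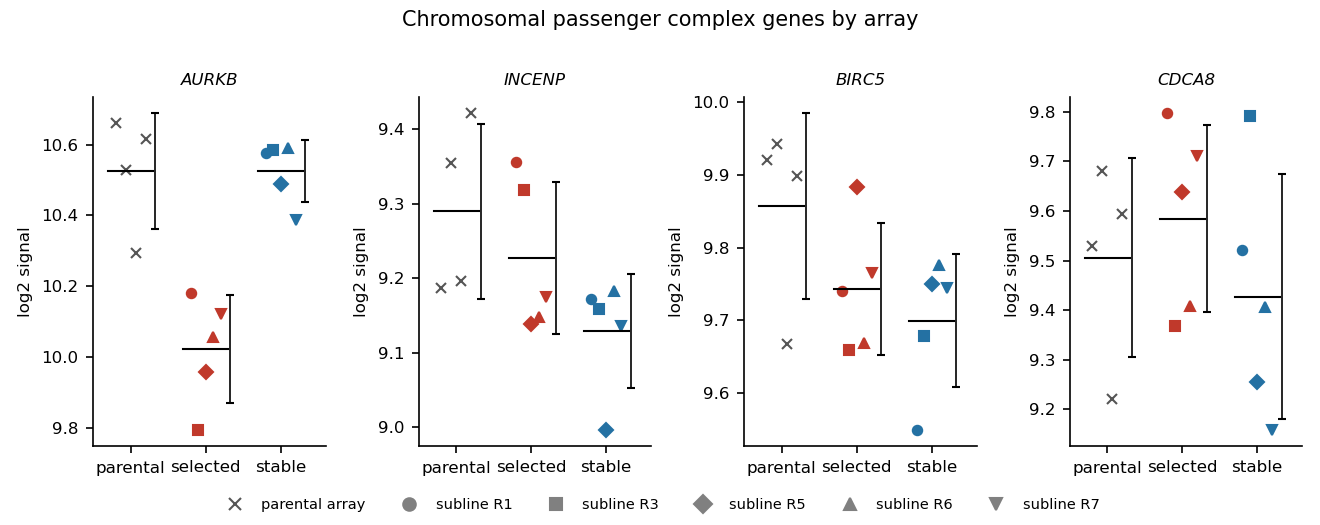
Deposited log2 signal of the 4 chromosomal passenger complex genes in the 14 arrays, by group, with crosses for parental arrays and 1 symbol per subline, black lines for group means and bars for 1 SD. For AURKB the 5 selected arrays sit between 9.79 and 10.18, below all other arrays, while for the other 3 genes the selected arrays overlap those of parental cells.

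Of the 7 kinases, cyclins and activators of mitotic entry none was called in any of the 3 comparisons. Cyclin B1 is the main activating partner of CDK1. CCNB1 had 10.41, 10.63, 10.18 and 10.51 in parental, 10.22, 9.61, 9.91, 9.91 and 10.28 in selected, and 10.31, 10.18, 9.95, 10.19 and 9.92 in stable arrays. Parental replicate 3 overlapped both resistant groups, and the other 3 parental arrays lay above all 10 resistant arrays. The difference was -0.45 (SE 0.14, adjusted p = 0.0755) in selected and -0.32 (SE 0.11, adjusted p = 0.631) in stable against parental cells. Selected against parental passed in 4 of 20 alternative settings, among them array weights (-0.53, adjusted p = 0.0174) and quantile normalization (-0.54, adjusted p = 0.0163).

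Cyclin B2 is the Golgi-associated B-type cyclin. CCNB2 had 11.41, 11.52, 11.21 and 11.29 in parental, 11.83, 11.46, 11.57, 11.59 and 11.78 in selected, and 11.50, 11.70, 11.01, 11.50 and 11.29 in stable arrays. The selected arrays lay above 3 of the 4 parental arrays, and only that of R3 fell short of parental replicate 2. The difference was 0.29 (SE 0.095, adjusted p = 0.0944), opposite in sign to that of CCNB1. It passed in 1 of 20 alternative settings, quantile normalization. Against stable cells the difference of CCNB2 was 0.25 (SE 0.12), higher in 4 of 5 sublines.

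CDK1 itself differed by 0.13 (SE 0.12) in selected and 0.12 (SE 0.19) in stable against parental cells. Its spread over stable arrays was wide, from 9.64 in R5 to 10.71 in R3. CDC25C, the phosphatase that activates CDK1, differed by 0.15 (SE 0.11) and -0.01 (SE 0.10). PLK1, the polo-like kinase of entry and spindle assembly, differed by 0.07 (SE 0.12) and 0.01 (SE 0.091). AURKA, the centrosomal Aurora kinase, differed by 0.14 (SE 0.10) and -0.04 (SE 0.11), and TPX2, its activator on spindle microtubules, by 0.13 (SE 0.098) and 0.04 (SE 0.087). AURKA, the close relative of AURKB, was higher in selected than in stable arrays in 4 of 5 sublines, by 0.18 on average (SE 0.088, adjusted p = 0.365).

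Of the 5 spindle checkpoint genes none was called. BUB1 is a kinase that recruits the other checkpoint proteins and marks the centromere for the passenger complex. BUB1 had 10.19, 10.46, 9.91 and 10.25 in parental, 10.70, 10.40, 10.65, 10.36 and 10.68 in selected, and 10.62, 10.45, 10.25, 10.42 and 10.26 in stable arrays. The selected arrays lay above 3 parental arrays and overlapped replicate 2. The difference was 0.36 (SE 0.12, adjusted p = 0.0928), and it passed without parental replicate 2 (0.44, adjusted p = 0.0487). Stable cells lay between the other groups, at 0.20 (SE 0.12) against parental.

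TTK, the kinase that starts the checkpoint signal, differed by 0.27 (SE 0.15) in selected and 0.17 (SE 0.18) in stable against parental cells. MAD2L1, which binds and blocks CDC20, differed by 0.17 (SE 0.11) and 0.14 (SE 0.11). BUB1B, which forms the inhibitory complex with it, differed by 0.02 (SE 0.095) and -0.04 (SE 0.12), and BUB3, which brings both BUB kinases to kinetochores, by -0.06 (SE 0.096) and -0.14 (SE 0.14).

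Of the 4 measured centromere and kinetochore genes none was called. NUF2 is a subunit of the NDC80 complex, which holds microtubule ends. NUF2 had 9.19, 9.39, 8.91 and 9.08 in parental, 9.60, 9.18, 9.42, 9.49 and 9.58 in selected, and 9.80, 9.73, 9.32, 9.24 and 9.33 in stable arrays. Both resistant groups lay mostly above the parental arrays, and replicate 2 overlapped both. The differences were 0.31 (SE 0.11, adjusted p = 0.129) and 0.34 (SE 0.14, adjusted p = 0.753). NDC80, the partner of NUF2, differed by 0.03 (SE 0.14) and -0.05 (SE 0.15).

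CENPE is a kinesin that carries chromosomes to the spindle equator. CENPE had 9.31, 9.97, 9.17 and 9.58 in parental, 9.58, 9.26, 9.25, 9.35 and 9.57 in selected, and 10.02, 9.57, 9.51, 9.81 and 9.57 in stable arrays. The parental arrays, from 9.17 to 9.97, spanned nearly the whole range of the other groups. Selected lay below stable by 0.44 in R1, 0.32 in R3, 0.25 in R5 and 0.45 in R6, and the pair of R7 differed by 0.00. The mean difference of -0.29 (SE 0.11) did not pass (adjusted p = 0.220, and 0.0836 with the subline block). CENPF, a large kinetochore protein of G2 and mitosis, differed between groups by at most 0.10.

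Of the 4 genes of anaphase onset none was called. Securin, encoded by PTTG1, holds separase inactive until the checkpoint is satisfied. PTTG1 had 10.54, 10.55, 10.28 and 10.59 in parental, 10.00, 10.21, 10.19, 10.32 and 10.30 in selected, and 10.34, 10.20, 10.14, 10.30 and 10.27 in stable arrays. Parental replicate 3 fell among the resistant arrays, and the other 3 parental arrays lay above all 10 of them. The difference was -0.29 (SE 0.091, adjusted p = 0.0867) in selected and -0.24 (SE 0.083, adjusted p = 0.623) in stable against parental cells. Without parental replicate 3 the first was -0.36 and passed (adjusted p = 0.0430). It also passed with array weights and with quantile normalization, so in 3 of 20 alternative settings.

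CDC20, which activates the anaphase-promoting complex, differed by -0.21 (SE 0.12) in selected and -0.04 (SE 0.096) in stable against parental cells. ESPL1, the gene of separase, differed by -0.13 (SE 0.098) and -0.02 (SE 0.12). SGO1, which shields centromeric cohesin, differed by 0.23 (SE 0.11) and 0.01 (SE 0.16).

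**Figure D3:**
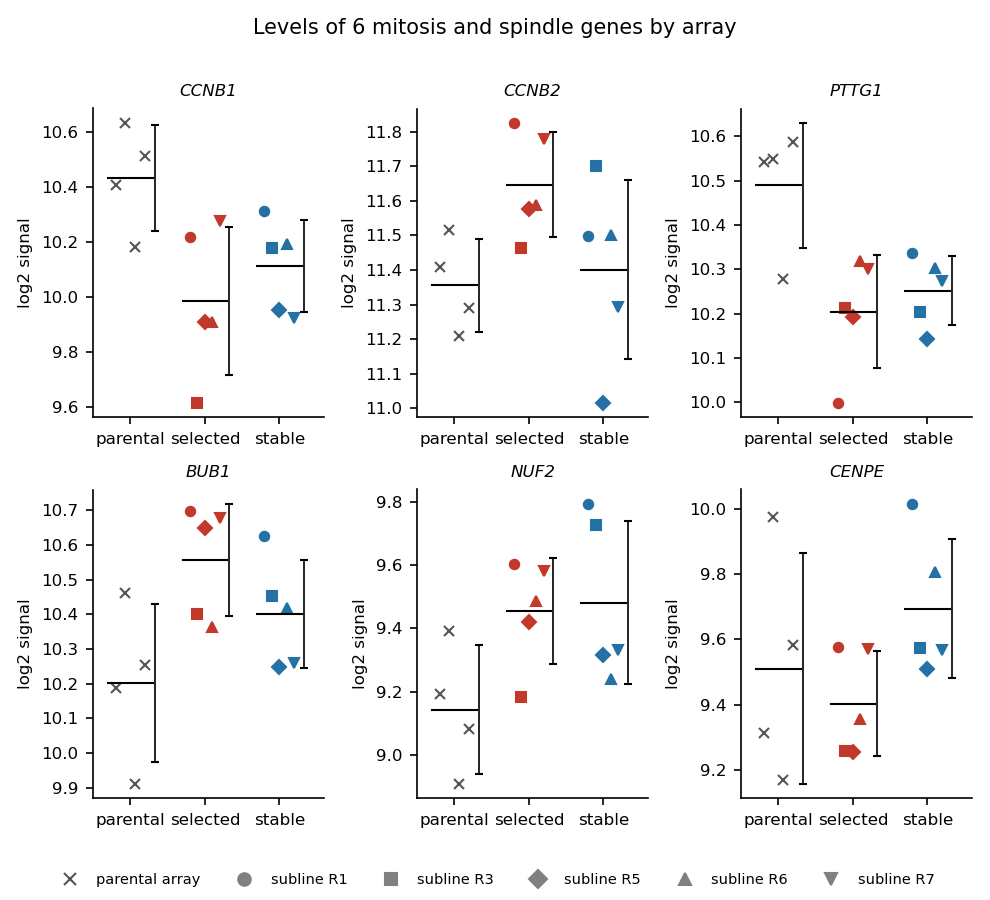
Deposited log2 signal of CCNB1, CCNB2, PTTG1, BUB1, NUF2 and CENPE in the 14 arrays, by group, with crosses for parental arrays and 1 symbol per subline, black lines for group means and bars for 1 SD. In each panel at least 1 parental array overlaps the selected and the stable arrays, and no difference reached an adjusted p under 0.05.

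Spindle motors and bundlers numbered 4, and none was called. KIF11, the kinesin that pushes spindle poles apart, had 9.83, 10.24, 9.64 and 10.00 in parental, 10.35, 9.79, 9.91, 9.78 and 10.11 in selected, and 9.97, 10.19, 9.30, 9.75 and 9.46 in stable arrays. All 3 groups overlapped. The selected minus stable difference of KIF11 ran from -0.39 in R3 to 0.65 in R7, around a mean of 0.25 (SE 0.17). KIF4A, a chromosome-bound kinesin, was 0.20 higher in selected than in stable cells (SE 0.079, adjusted p = 0.249), in 4 of 5 sublines. KIF2C, which takes microtubule ends apart, and NUSAP1, which bundles microtubules near chromosomes, differed in that comparison by 0.04 (SE 0.13) and 0.03 (SE 0.11).

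Of the 6 cytokinesis genes none was called. PRC1 cross-links microtubules of the central spindle. It was 0.19 higher in selected than in stable cells (SE 0.083, adjusted p = 0.294), in 4 of 5 sublines. RACGAP1 is the GTPase-activating subunit of centralspindlin and had the smallest spread within groups among the members (SD 0.059). Its selected arrays, at 10.654, 10.549, 10.663, 10.606 and 10.687, all lay above its stable arrays, at 10.527, 10.544, 10.454, 10.532 and 10.545, with R3 lowest among the first and R7 highest among the second, a separation upwards found for 2.83% of all genes. The difference of 0.11 (SE 0.057) did not pass (adjusted p = 0.403). RACGAP1 was the only member higher in all 5 sublines, as were 11.8% of all genes.

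KIF20A brings the passenger complex to the central spindle, and differed by -0.22 (SE 0.11, adjusted p = 0.306) in selected against parental cells. KIF23, the motor subunit of centralspindlin, differed by -0.01 (SE 0.16). ANLN, which links actin and septins at the furrow, differed by 0.21 (SE 0.15), and ECT2, which activates RhoA there, by 0.17 (SE 0.094). TOP2A, the topoisomerase that untangles sister chromatids, differed by -0.04 (SE 0.098) in selected and 0.03 (SE 0.093) in stable against parental cells.

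The intervals show how large a difference could have gone unnoticed. For the 34 measured members other than AURKB, every 95% interval lay within 1 log2 unit of 0 in all 3 comparisons. It lay within 0.5 for 29 members in selected against parental, 28 in stable against parental and 30 in selected against stable cells. The bounds farthest from 0 were 0.75 below for CCNB1, 0.65 above for NUF2 and 0.62 above for KIF11 in those comparisons.

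The subline pairs moved in different directions. In R5 only 4 of 35 members were lower in the selected than in the stable array, and in R7 only 2, with medians of 0.23 and 0.24 above. In R3 the reverse was seen, with 28 of 35 lower and a median of -0.24. R1 had 14 lower (median 0.10) and R6 had 21 (median -0.03). Over all genes the pairs differed less: the selected array was lower for 44.0%, 39.9%, 45.6%, 52.3% and 52.1% of all genes, in the same order of sublines, with medians between -0.02 and 0.06. The olfactory receptor mean was also lower in each selected array than in its stable array, most in R7 (6.32 against 6.70) and least in R6 (6.60 against 6.63), with 6.06 against 6.18 for R1, 6.26 against 6.39 for R3 and 6.50 against 6.60 for R5. Its part in the pair medians was not tested pair by pair. CDK1 showed the split most plainly, at -0.92 in R3, -0.08 in R1, 0.13 in R6, 0.39 in R7 and 0.54 in R5.

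Each pair rests on 1 array for each subline and condition. The R5 pair holds a low stable array, which was the lowest of its group for 22 of 35 members (11.6% of all genes) and the highest for none. The R3 pair holds a low selected array, lowest for 20 members (10.9% of all genes) and highest for none, and a stable array that was highest for 14 (19.2%). The selected array of R1 was highest for 20 (25.7%). In R7 the selected array was highest for 10 (14.6%) and the stable array lowest for 7 (17.8%).

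**Figure D4:**
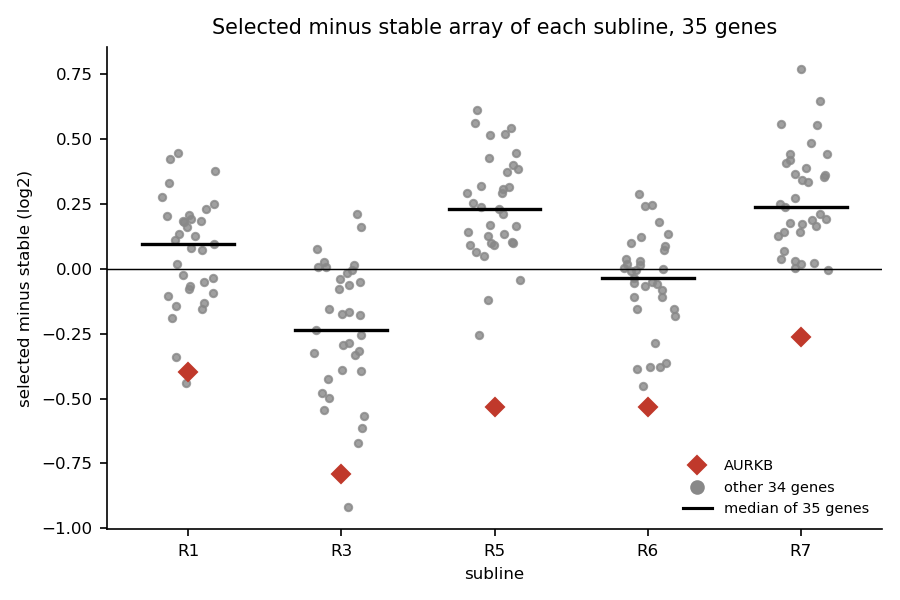
Selected minus stable log2 signal of the 35 measured members in each subline, with grey points for 34 genes, red diamonds for AURKB and black lines for the median of the 35. The medians are 0.10, -0.24, 0.23, -0.03 and 0.24 from left to right, while AURKB is below 0 in all 5 sublines.

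Levels were also compared between the 5 sublines over both conditions. No member passed limma's F test, at which 0.120% of all genes were called, and 2 of 35 had an unadjusted p under 0.05, against 15.8% of all genes. The smallest adjusted p was that of NDC80 (0.196), with subline means from 9.60 in R3 to 10.15 in R1, followed by ANLN (0.235), from 11.20 in R6 to 11.77 in R1. With array weights both passed. The widest range, 0.66, was that of TTK, from 9.35 in R5 to 10.01 in R1. R1 was the highest subline for 27 of 35 members, and R1 was highest for 32.5% of all genes. R5 was the lowest for 16 members, against 16.0% of all genes. The R1 arrays had the highest mean over the members in both groups (10.43 selected and 10.37 stable). They also had the lowest olfactory receptor mean of both groups (6.06 and 6.18), and its part in the order of sublines was not tested.

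Within the parental group the members followed the array. Replicate 3 was the lowest for 30 of 35 members and replicate 2 the highest for 28, against 39.1% and 29.4% of all genes. The olfactory receptor mean was highest in replicate 3 (6.71) and lowest in replicate 2 (6.16), and its part in the members' levels was not tested beyond its use as a covariate. With that covariate 4 members passed against parental cells, CCNB1 at -0.50 and BUB1 at 0.30 besides AURKB and KIF20A, where 2318 genes passed in all. The members' spread within groups had a median SD of 0.18, against 0.15 for all genes, with 0.20 in parental, 0.16 in selected and 0.18 in stable arrays.

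Other genes of mitosis were read from 6 lists that hold 136 genes, of which 133 were measured: regulators of mitotic transcription, the anaphase-promoting complex, other kinetochore genes, cohesin and condensin, other spindle and midbody genes, and other mitotic kinases and phosphatases. Against parental cells 10 rose and 3 fell in selected cells, where 5.03% of all genes were called higher and 1.89% lower, and 39 of 133 (29.3%) had an unadjusted p under 0.05, against 20.3% of all genes. Their median difference was 0.10. In stable cells none of the 133 was called by limma, and 6 had an unadjusted p under 0.05, against 6.09% of all genes.

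NEK2, a centrosome kinase, rose by 0.57 (SE 0.081, adjusted p = 0.00292). NDE1, a dynein regulator at kinetochores, rose by 0.61 (SE 0.12, adjusted p = 0.0140), and its relative NDEL1 by 0.38 (SE 0.098, adjusted p = 0.0423). SKA1, a kinetochore coupler, rose by 0.68 (SE 0.17, adjusted p = 0.0349), and KIF18B, a microtubule-shortening kinesin, by 0.46 (SE 0.11, adjusted p = 0.0255). ARPP19, which inhibits the phosphatase that opposes CDK1, rose by 0.39, and NEK7 by 0.40. WEE1, the kinase that restrains CDK1, fell by 0.74 (SE 0.16, adjusted p = 0.0188), and in stable cells its difference was -0.84 (SE 0.28) without passing (adjusted p = 0.592). UBE2S, the ubiquitin-conjugating enzyme of the anaphase-promoting complex, fell by 0.33, and PSRC1, a spindle protein, by 0.35. The array holds 2 rows each for UBE2S, KIF18B and ARPP19 and 3 for WEE1. Only the brightest row of each is described here. The UBE2S row used is numbered among rows of chromosome 17 genes, while UBE2S lies on chromosome 19, so its locus is uncertain. FOXM1 (0.46, adjusted p = 0.0443), PBK (0.43) and the cytokinesis kinase CIT (0.45) also rose, and these 3 were added to the names after their values were seen. Many of these calls stood near the threshold. Of 20 alternative settings the call was lost in 15 for NEK7, 11 for NDEL1 and PBK, 10 for UBE2S, 9 for ARPP19, SKA1, FOXM1 and CIT, 8 for WEE1, 6 for PSRC1, 5 for KIF18B, 2 for NDE1 and 1 for NEK2. Each count includes the setting of a log2 difference of at least 1, which none of these differences reached. That setting gave the only loss of NEK2. Leaving out subline R7 and leaving out its selected array are the same fit here, and both are counted.

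Among the 16 regulators of mitotic transcription, 15 had a difference above 0 in selected against parental cells, with a median of 0.25, but only FOXM1 passed. Of all genes 8441 of 18398 lay above 0. An unadjusted p under 0.05 was found for 10 of the 16 (62.5%), all higher, against 20.3% of all genes. This list was chosen with earlier results of these data known, and it holds activators such as FOXM1 as well as repressors such as E2F7. Its count was not examined under the alternative settings. Of the 16 regulators 8 were higher in the selected array of all 5 sublines, as were 26 of the 133 genes and 11.8% of all genes. Of the 20 cohesin and condensin genes none passed in that comparison, and the smallest p was that of NCAPD3 (0.33, adjusted p = 0.0635). Between selected and stable cells only E2F7, a repressor of E2F targets, was called, 0.45 higher (SE 0.090, adjusted p = 0.0293). It was higher in all 5 sublines and lost its call in 10 of 23 alternative settings, among them those without R7. A log2 difference of at least 1, which it could not reach, is also counted among the 10. With the subline block 8 of the 133 were called, against 4.92% of all genes: E2F7, CENPL, STAG1, NDE1, NEK2 and PBK were higher, UBE2S and KNTC1 lower.

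**Figure D5:**
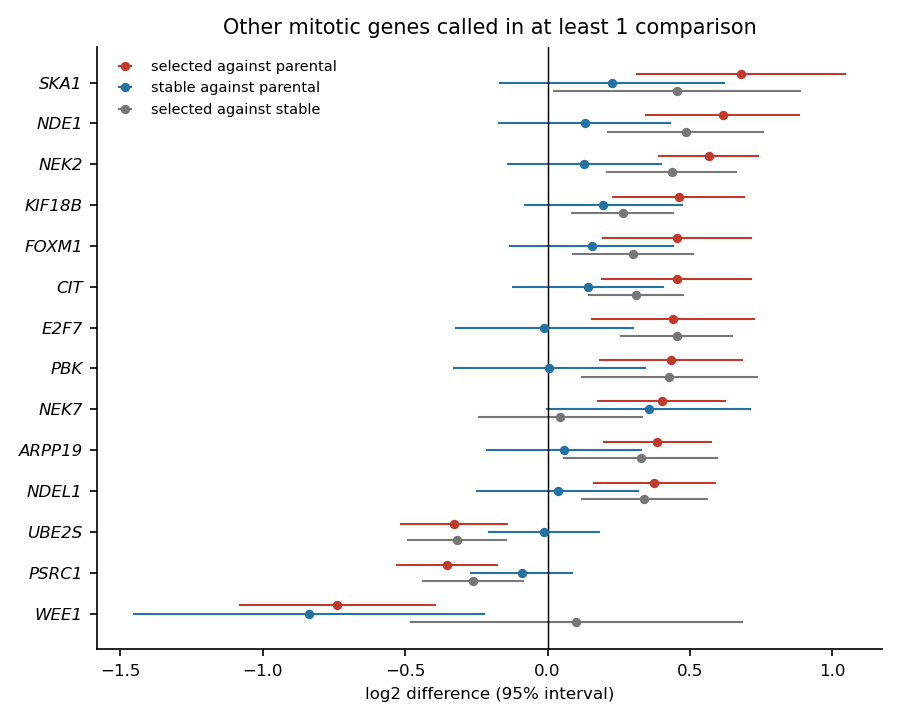
Log2 differences (points) with 95% intervals (lines) for the 14 other mitotic genes called in at least 1 comparison, in order of their difference between selected and parental cells. The red differences run from -0.74 for WEE1 to 0.68 for SKA1, and the stable against parental differences (blue) reached no adjusted p under 0.05.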

How the data were processed

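Biotin-labelled RNA of 14 samples was measured on Affymetrix whole-transcript arrays, per the labels. The values the authors deposited were treated as log2 signal, with base 2 taken from their range. How background was corrected and how arrays were normalized and summarised is not given in the sources used here. Of 32295 table rows the platform annotation names 1 gene for 19148, several for 1376, and no gene here for 11771. Present symbols came from a RefSeq table matched on gene ID (19118 found). For 633 genes with several rows, BIRC5 among the members, the brightest row on average was used, giving 18398 genes, with no filter on dim genes. Samples were grouped by the labels.

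Each comparison was fitted across all genes with limma 3.58.1 (R version 4.3.3; linear model with moderated variance, two-sided, Benjamini-Hochberg adjustment, threshold 0.05), on the arrays of its groups with no covariates. The 10 resistant arrays gave an F test between sublines, with growth condition in the model. Members were read from these fits. Selected and stable arrays with the same number come from the same subline, so the labels pair them. The correlation of paired deviations over all genes was 0.636, 0.050, 0.371, 0.546 and -0.468, in the order R1, R3, R5, R6, R7. Over the members it was 0.461, -0.286, 0.281, -0.164 and -0.534 in the same order. Tables and figures used Python 3.11.15, pandas 2.3.3 and matplotlib 3.10.9. The fits were also run on simulated data with noise drawn separately for each gene and array. Shifts of whole arrays were not simulated, so that run is not used as support here.

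The members and the gene lists were chosen with earlier results of these data known. Members could all be named, chiefly the called ones, those with the 6 smallest p and the 3 highest and lowest differences. Of other mitotic genes up to 10 called per comparison were named, or the 2 with the smallest p of a list with none called, and not all of these are printed. Alternatives were other variance, weight, normalization, filter, row, array and block choices, a log2 difference of at least 1, the olfactory receptor mean as a covariate, leaving out R7, and leaving out each array. Leaving out arrays in the comparison between sublines was added after seeing the data.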

Additional observations from a re-analysis of the deposited data

Results flagged for a closer look

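Over the 35 members and 3 groups, 105 sets of array values were tested for 1 array far from the rest, and 5 had a gap to the nearest array above Dixon's 95% critical value. Chance alone is set to give such a gap in 5% of sets, so 5 of 105 is close to that rate. INCENP was 9.00 in the stable array of R5, with 9.14 to 9.18 in the other stable arrays. RACGAP1 was 10.45 in the same array, with 10.53 to 10.55 in the others. BIRC5 was 9.67 in parental replicate 3, with 9.90 to 9.94 in the other parental arrays, and PTTG1 was 10.28 there, with 10.54 to 10.59. TOP2A was 11.35 in the stable array of R1, with 11.10 to 11.16 in the others.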

How the results depend on the processing

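For selected against parental cells, 1 member was called, and 3 with array weights, 5 with quantile normalization, 2 with the filter at the 40th percentile, 4 with the olfactory receptor covariate and 0 at a log2 difference of at least 1. Leaving out 1 array gave 0 to 2 members. Of all genes 1273 were called, 1696 with array weights, 1710 with quantile normalization, 1291 with the filter, 2318 with the covariate, 44 at a difference of at least 1, 621 without subline R7 and 517 to 1343 leaving out 1 array. For stable against parental cells, 0 members were called, and 1 with array weights (CCNB1, lower) or the covariate (NUF2, higher). The 1 gene called in all became 5 with trended and robust variance, 286 with array weights, 2 with quantile normalization or median centring, 4 with the filter, 8 in a fit of all 14 arrays, 7 with subline as a random block, 75 with the covariate and 1 to 26 leaving out 1 array.

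For selected against stable cells, 1 member was called, and 0 at a difference of at least 1, without R7 and with the replicate block and covariate together. AURKB was then at -0.64 (adjusted p = 0.458). Of all genes 397 were called, 906 with the replicate block, 0 with block and covariate together, 0 without R7, 29 at a difference of at least 1, 1480 with array weights, 680 in a fit of all 14 arrays, 1367 with the random block and 86 to 962 leaving out 1 array. Without R7 fewer samples entered the fit. The block changed no other call of a member. Between sublines 0 members were called, and 2 with array weights. The 22 genes became 584 with trended and robust variance, 1389 with array weights, 0 with quantile normalization, 8 with median centring and 0 to 410 leaving out 1 array.

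The causes of these shifts were not tested. The 23 named member results had 487 alternative values, of which 470 kept their side of the threshold, 5 lost a call, 12 gained one and 0 changed sign. The named results of members and of other mitotic genes were chosen by a call, a small p or a large difference in the main fits. Few sign changes were therefore favoured in advance. KIF20A, called with quantile normalization and with the covariate, is not among the named results. AURKB accounted for the 5 losses, with adjusted p from 0.00218 to 0.0543 against parental and from 0.00190 to 0.458 against stable cells. In each comparison 1 of its losses was at a log2 difference of at least 1. Its difference of -0.50 could not meet that setting. For the other mitotic genes 115 of 793 values lost a call, 49 gained one and 0 changed sign, with that setting again counted. Against parental cells, leaving out R7 and leaving out its 1 array are the same fit, and both are counted. With the fits limited to 9 or 10 arrays, differences of the size seen for CCNB1 or BUB1 sit near the threshold.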
